A study of Mus musculus with 8 samples.

Results

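Meningeal fibroblasts are the mesenchymal cells of the membranes that wrap the brain, and 10 genes known from them are described here. The genes were *Slc22a6*, *Slc22a8*, *Slc6a13* and *Slc13a4*, which encode membrane transporters, *Foxc1* and *Foxc2*, which encode forkhead transcription factors, and *Dcn*, *Lum*, *Clec3b* and *Ptgds*, which encode secreted proteins. They were chosen by name with the difference between the maternal diets in these same brains already known. Their differences between the diets, and whether the test over all genes called them, are therefore given only as a description. All 10 were found among the 33971 genes counted, and all 10 were among the 19367 genes that passed the filter on low counts.

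The brains came from wild-type (WT) mouse embryos at E14.5, whose dams were fed either a choline-deficient diet (CDD, 4 brains) or normal chow (ND, 4 brains). Choline is a nutrient used for membrane phospholipids, acetylcholine and methyl groups, and the CDD brains were made to ask whether a lack of choline gives the brain transcriptome seen when *Mfsd7c*, a choline transporter gene, is deleted. The knockout brains were not analysed here. The methods give the day of mating as the start of CDD, and the diet was kept until the embryos were collected. Polyadenylated RNA was sequenced in bulk. Both groups had the same genotype and stage, and the number of dams and litters was not given, so the spread between brains of a diet may be a spread within a litter. The methods describe the sequencing of WT and knockout brains from normal chow apart from that of CDD brains. Whether those are the ND brains used here is not stated. Nor is it stated whether the ND and CDD libraries were made together, so diet and library batch cannot be told apart.

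The meninges form from neural crest and mesoderm as pia, arachnoid and dura. Their fibroblasts lay down the collagens and proteoglycans of the brain surface and release signals for the cortex beneath, such as retinoic acid and Cxcl12. Fibroblasts of the inner layers also carry organic anion, amino acid and sulfate transporters, and the arachnoid is a barrier between blood and cerebrospinal fluid. *Foxc1* is required for the forebrain meninges of the mouse. Few of these genes are exclusive to the meninges: *Ptgds* and several of the transporters are also used by the choroid plexus, *Foxc1* by pericytes, and *Dcn* and *Lum* by fibroblasts elsewhere in the body. In RNA of a whole brain, fewer cells of a type and less RNA per cell cannot be told apart, and the amount of meninges left on each brain at dissection is not recorded.

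RefSeq promoters (GRCm38.p6) were on hand for 6 of the 10 genes, *Slc22a6*, *Slc22a8*, *Slc6a13*, *Slc13a4*, *Foxc1* and *Ptgds*. The bases directly before the start of 3 of them are shown, those of the neighbouring organic anion transporters *Slc22a6* and *Slc22a8*, which belong to one family, and that of *Foxc1*, a gene whose level was nearly the same in both diets. They read 5′ to 3′ on the strand of the gene, and capitals mark GGGCGG, the core of a GC box.
Slc22a6, chr19:8617876-8617995, plus strand: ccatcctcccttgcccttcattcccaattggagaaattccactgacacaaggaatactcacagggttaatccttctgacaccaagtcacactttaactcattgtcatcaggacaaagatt
Slc22a8, chr19:8593062-8593181, plus strand: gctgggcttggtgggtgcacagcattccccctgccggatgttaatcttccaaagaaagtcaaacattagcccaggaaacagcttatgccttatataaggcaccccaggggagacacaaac
Foxc1, chr13:31806526-31806645, plus strand: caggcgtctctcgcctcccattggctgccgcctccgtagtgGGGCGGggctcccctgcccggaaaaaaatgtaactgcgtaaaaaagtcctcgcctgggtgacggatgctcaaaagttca

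Neither of the transporter stretches holds a GC box, and that of *Foxc1* holds 1. The RefSeq promoter table was searched on both strands, over the part of each entry before the start, for TGTTTAC, a motif that forkhead factors can bind, for its variant TGTTTGC, for the TATA-box core TATAAA and for the GC-box core GGGCGG. No promoter of the 6 genes held either forkhead motif or the exact letters TATAAA. Other forms of a TATA box were not searched for, and the *Slc22a8* stretch holds the letters tatataag. Of all 32851 promoters, 3.17% held TGTTTAC, 4.30% held the variant and 12.4% held TATAAA. The GC-box core was found in *Foxc1*, *Slc13a4* and 1 of the 3 listed starts of *Slc6a13*, against 32.7% of all promoters. These matches only describe the letters in the window.

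Library totals were 32706627 to 43121170 counts in CDD brains and 31770217 to 34399295 in ND brains, and counts were scaled to CPM, the count relative to library size, with TMM factors. edgeR's quasi-likelihood test with Benjamini-Hochberg adjustment called 1710 genes at an adjusted p under 0.05, which was 8.83% of the genes tested, with 4.59% lower and 4.24% higher in CDD. The median log2 fold change of CDD over ND over all genes tested was -0.0038. The neuronal tubulin *Tubb3* was at 1882 ± 107.1 CPM in CDD and 1859 ± 24.9 CPM in ND, and the fibroblast collagen *Col1a1* at 100.5 ± 2.27 and 117.9 ± 10.6 CPM (SD, n = 4 each). One library stood apart: the 28 Hox genes counted, which mark hindbrain and spinal cord, summed to 143 CPM in CDD 2 and to between 0.474 and 3.42 CPM in the other 7 brains. A different brain, ND 2, was low for most of the 10 genes, and values without each of these brains are given below. Since ND 2 was picked out for its low values, leaving it out lowers the log2 fold change of each gene in which it was low.

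Of the 10 genes, 6 were called lower in CDD and 1, *Lum*, was called higher, beside the 4.59% and 4.24% of all genes. In 4 of them, *Slc22a8*, *Slc6a13*, *Foxc2* and *Clec3b*, every CDD brain lay below every ND brain, as in 7.39% of all genes, and for *Lum* the reverse held, as in 7.65%. The median log2 fold change of the 10 was -0.49, and 9 of the 10 were below 0. Since the genes were chosen with this contrast known, nothing is read from these counts. Without CDD 2, 5 were called lower and 0 higher. Without ND 2, 7 were called lower and 0 higher. The summed level of the 10 genes ran from 111.8 to 140.7 CPM in CDD brains and from 134.8 to 198.3 CPM in ND brains, where ND 2 was the lowest.

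**Figure D1:**
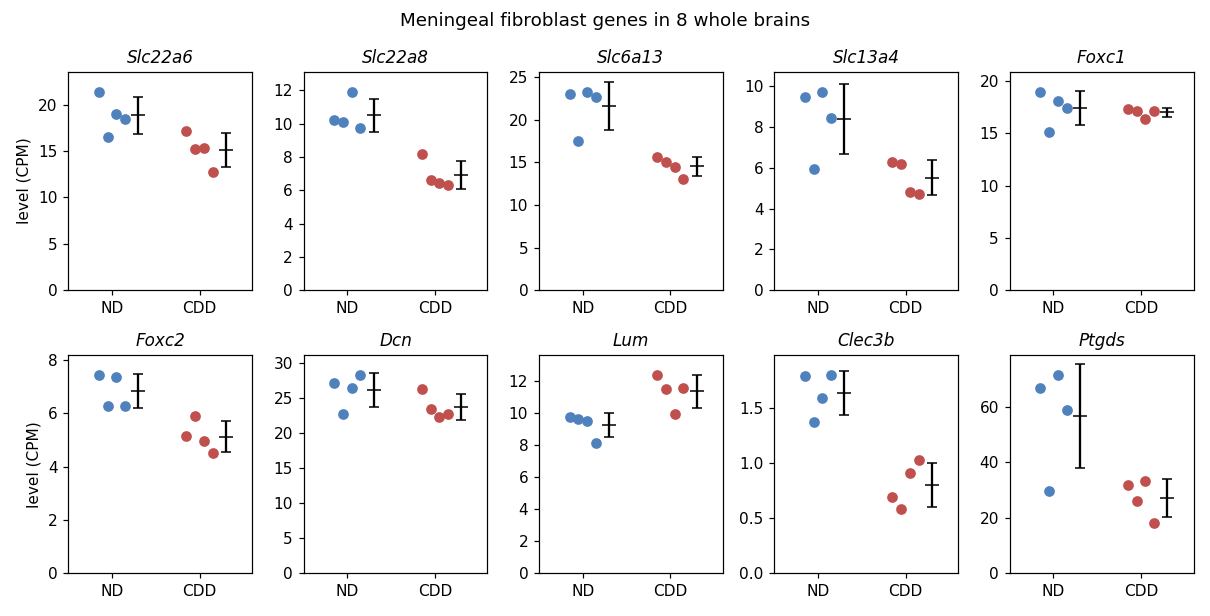
Level of each of the 10 genes in CPM (vertical axes, from 0) in the 4 ND brains (blue) and 4 CDD brains (red), drawn from replicate 1 on the left to 4 on the right, with the mean and SD of each diet in black. The diets do not overlap for *Slc22a8*, *Slc6a13*, *Foxc2*, *Lum* and *Clec3b*, and ND 2 is the lowest ND brain in 7 of the 10 panels.

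The 4 transporters were lower in CDD, by a log2 fold change between -0.61 and -0.32. *Slc22a8* encodes OAT3, an organic anion transporter that clears drugs and metabolites. Its level was 8.15, 6.64, 6.46 and 6.33 CPM in CDD 1 to CDD 4 and 10.2, 10.1, 11.9 and 9.74 CPM in ND 1 to ND 4. Every ND brain was above every CDD brain, ND 2 lay among the other ND brains, and CDD 1 was nearest to them. The means were 6.90 ± 0.847 CPM in CDD and 10.5 ± 0.973 CPM in ND (SD, n = 4 each), with a log2 fold change of -0.61 (SE 0.10), which was -0.62 without ND 2. Over the fits that leave out 1 brain it ran from -0.69 to -0.54.

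*Slc22a6* encodes OAT1, a related organic anion transporter whose gene lay 6.2 kb from *Slc22a8* on chromosome 19 as the counted genes are placed. *Slc22a6* was at 17.1, 15.2, 15.3 and 12.7 CPM in CDD 1 to CDD 4 and at 21.4, 16.5, 19.1 and 18.4 CPM in ND 1 to ND 4. The diets overlapped through CDD 1 and ND 2 alone, with CDD 1 above ND 2. The means were 15.1 ± 1.80 CPM in CDD and 18.9 ± 2.01 CPM in ND (SD, n = 4 each), and the log2 fold change of -0.32 (SE 0.090) was the smallest of the 4 transporters. Its call held in 3 of the 8 fits that leave out 1 brain and was lost without CDD 2, CDD 4, ND 1, ND 3 or ND 4.

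*Slc6a13* encodes GAT2, which takes up GABA and taurine. Its level was 15.64, 15.04, 14.47 and 13.03 CPM in CDD 1 to CDD 4 and 23.02, 17.44, 23.28 and 22.67 CPM in ND 1 to ND 4. The CDD brains kept within a narrow band, 3 ND brains lay close together, and ND 2 stood between them and the CDD brains. With means of 14.6 ± 1.12 CPM in CDD and 21.6 ± 2.78 CPM in ND (SD, n = 4 each), the log2 fold change was -0.57 (SE 0.088), and it was -0.66 without ND 2. Over the fits that leave out 1 brain it ran from -0.66 to -0.53.

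*Slc13a4* encodes a sodium-dependent sulfate transporter. It was measured at 6.31, 6.20, 4.83 and 4.74 CPM in CDD 1 to CDD 4 and at 9.51, 5.97, 9.74 and 8.44 CPM in ND 1 to ND 4. ND 2 lay inside the range of the CDD brains, and the other ND brains lay above all CDD brains. The means were 5.52 ± 0.852 CPM in CDD and 8.42 ± 1.73 CPM in ND (SD, n = 4 each), with a log2 fold change of -0.61 (SE 0.15), which was -0.74 without ND 2. Its call was lost without ND 1, ND 3 or ND 4, where its log2 fold change was -0.55, -0.53 and -0.61. Fewer genes were also called in all in these fits, as given below.

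*Foxc1* and *Foxc2* encode forkhead factors of the head mesenchyme. *Foxc1* was at 17.4, 17.1, 16.4 and 17.2 CPM in CDD 1 to CDD 4 and at 19.0, 15.2, 18.1 and 17.5 CPM in ND 1 to ND 4. The CDD brains all lay within the range of the ND brains. The means were 17.0 ± 0.417 CPM and 17.4 ± 1.64 CPM (SD, n = 4 each), and the log2 fold change was -0.04 (SE 0.073), which turned to 0.0094 without ND 1.

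*Foxc2*, which also acts in lymphatic vessels, was at 5.16, 5.88, 4.95 and 4.49 CPM in CDD 1 to CDD 4 and at 7.43, 6.28, 7.34 and 6.26 CPM in ND 1 to ND 4. The diets did not overlap, with CDD 2 nearest to the ND brains. The means were 5.12 ± 0.578 CPM in CDD and 6.83 ± 0.645 CPM in ND (SD, n = 4 each), with a log2 fold change of -0.42 (SE 0.11). The call held in 3 of the 8 fits that leave out 1 brain and was lost without CDD 1, CDD 4, ND 1, ND 3 or ND 4. The difference between the changes of *Foxc1* and *Foxc2* was not tested.

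Among the secreted proteins, *Ptgds* had the widest spread between brains and, with *Clec3b*, the largest log2 fold change. It encodes lipocalin-type prostaglandin D synthase, which makes prostaglandin D2 and carries small lipids in cerebrospinal fluid. *Ptgds* was at 31.7, 25.9, 33.2 and 18.0 CPM in CDD 1 to CDD 4 and at 66.6, 29.7, 71.4 and 58.7 CPM in ND 1 to ND 4. ND 2 fell among the CDD brains, while the other 3 ND brains were all above every CDD brain. The means were 27.2 ± 6.87 CPM in CDD and 56.6 ± 18.7 CPM in ND (SD, n = 4 each), and the log2 fold change of -1.06 (SE 0.33) was not called. Without ND 2 it was -1.27 and was called, as it was by DESeq2 and limma-voom with all 8 brains. That was the only call in the 8 fits that leave out 1 brain, over which it ran from -1.27 to -0.91. *Ptgds* was also not called with RLE or upper-quartile scaling, without the filter, with a replicate block or on the log2(FPKM + 1) scale.

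*Clec3b* encodes tetranectin, a plasminogen-binding protein of the matrix. It was at 0.694, 0.580, 0.906 and 1.03 CPM in CDD 1 to CDD 4 and at 1.79, 1.38, 1.59 and 1.80 CPM in ND 1 to ND 4. No CDD brain reached the lowest ND brain, though these levels rest on only 20 to 39 counts in the CDD brains and 44 to 62 in the ND brains. The means were 0.801 ± 0.202 CPM in CDD and 1.64 ± 0.198 CPM in ND (SD, n = 4 each), with a log2 fold change of -1.02 (SE 0.21). Leaving out 1 brain at a time moved it between -1.15 and -0.90.

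Decorin and lumican, the small leucine-rich proteoglycans encoded by *Dcn* and *Lum*, bind collagen fibrils and set their thickness. Their genes lay 47.0 kb apart on chromosome 10 and their log2 fold changes had opposite signs. *Dcn* was at 26.3, 23.5, 22.2 and 22.7 CPM in CDD 1 to CDD 4 and at 27.2, 22.7, 26.4 and 28.3 CPM in ND 1 to ND 4. ND 2 lay among the CDD brains, and the other ND brains lay above all CDD brains, ND 3 only just above CDD 1. The means were 23.7 ± 1.84 CPM in CDD and 26.1 ± 2.43 CPM in ND (SD, n = 4 each), with a log2 fold change of -0.14 (SE 0.074).

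*Lum* was the single gene of the 10 above 0. It was at 12.4, 11.5, 9.94 and 11.6 CPM in CDD 1 to CDD 4 and at 9.74, 9.60, 9.46 and 8.15 CPM in ND 1 to ND 4. CDD 3 lay just above ND 1, and the other CDD brains lay further up. The means were 11.3 ± 1.01 CPM in CDD and 9.24 ± 0.735 CPM in ND (SD, n = 4 each), with a log2 fold change of 0.29 (SE 0.090). The call was held in 1 of the 8 fits that leave out 1 brain, the one without CDD 3, and was lost without CDD 1, CDD 2, CDD 4, ND 1, ND 2, ND 3 or ND 4.

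**Figure D2:**
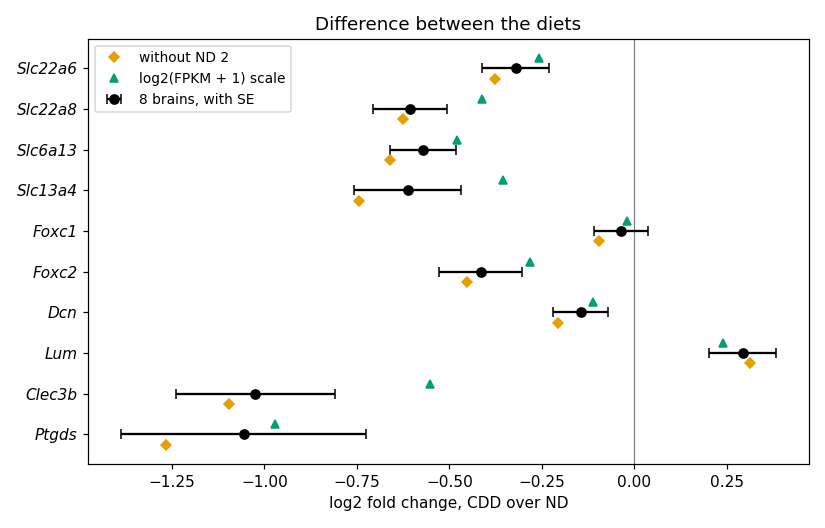
Log2 fold change of CDD over ND (horizontal axis) for each of the 10 genes, with all 8 brains and its SE (black), without ND 2 (orange) and on the log2(FPKM + 1) scale (green). All genes but *Lum* lie below 0, *Ptgds* and *Clec3b* lie lowest with all 8 brains at -1.06 and -1.02, and the green points lie nearer to 0 for every gene. The orange points lie below the black ones for every gene but *Lum*, as ND 2 was low for these genes.

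Levels were compared between genes by FPKM, which divides by gene length. *Ptgds* was the highest in both diets, at 34.1 ± 11.2 FPKM in ND and 16.4 ± 4.09 FPKM in CDD, and *Slc6a13* was next, at 7.39 ± 0.947 and 4.99 ± 0.358 FPKM (SD, n = 4 each). *Clec3b* was the lowest, at 1.64 ± 0.199 FPKM in ND and 0.806 ± 0.206 FPKM in CDD. In ND the order between them was *Slc22a6* (4.71 FPKM), *Dcn* (4.45), *Lum* (3.75), *Foxc1* (2.96), *Slc22a8* (2.66), *Foxc2* (2.49) and *Slc13a4* (1.85). The ranges over ND brains overlapped between *Slc22a6* and *Dcn*, *Dcn* and *Lum*, *Foxc1* and *Slc22a8*, *Slc22a8* and *Foxc2*, and *Slc13a4* and *Clec3b*. In CDD, *Lum* stood in the third place with 4.61 ± 0.403 FPKM, and its range overlapped those of *Slc6a13* and *Dcn* beside it. The range of *Dcn* overlapped that of *Slc22a6* after it, and that of *Foxc2* the range of *Slc22a8*, whereas no other neighbours in CDD overlapped.

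How the genes varied among brains of one diet was examined next, because these deviations do not use the difference between the diets on which the genes were chosen. The deviation of a brain is its log2 CPM minus the mean of its own diet group. The mean deviation over the 10 genes was 0.12, -0.0002, -0.0082 and -0.11 in CDD 1 to CDD 4 and 0.13, -0.25, 0.12 and 0.0079 in ND 1 to ND 4. ND 2 was low for 9 of the 10 genes and was the lowest ND brain in 7 of them, where it was the lowest ND brain in 27.9% of all genes tested. CDD 1 was the highest CDD brain in 7 of the 10, against 24.6% of all genes, and CDD 4 was the lowest CDD brain in 6 of the 10, against 31.6%.

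**Figure D3:**
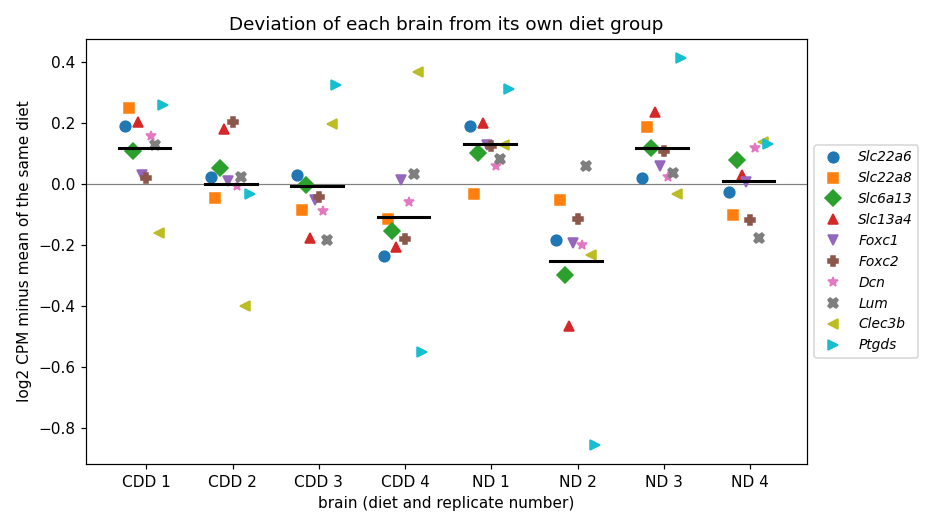
Deviation of each brain from the mean of its own diet (vertical axis, log2 CPM) for the 10 genes, with 1 symbol per gene and a black line at their mean. In ND 2, 9 of the 10 genes lie below 0, with *Ptgds* lowest at -0.85 and *Slc13a4* next at -0.47.

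The genes did not all follow the same brains. Over the 8 brains, the Pearson correlation of the deviations of a gene with the mean deviation of the other 9 was 0.95 for *Slc6a13*, 0.90 for *Slc13a4*, 0.86 for *Foxc1*, 0.84 for *Ptgds*, 0.83 for *Slc22a6* and 0.79 for *Dcn*. It was 0.56 for *Foxc2*, 0.50 for *Slc22a8*, 0.02 for *Lum* and -0.14 for *Clec3b*, the gene with the fewest counts. The closest pairs were *Slc6a13* with *Ptgds* and *Slc6a13* with *Slc13a4*, both at 0.94, while the neighbours *Slc22a6* and *Slc22a8* were at 0.54 and *Dcn* and *Lum* at 0.07. The deviations are from 8 libraries that all genes share, and ND 2 weighs on them. When ND 1 and ND 2, the brains farthest from the median, were left out, the correlation over 6 brains was 0.89 for *Slc6a13*, 0.74 for *Slc13a4*, 0.80 for *Slc22a6*, 0.61 for *Ptgds*, 0.48 for *Foxc1* and 0.85 for *Slc22a8*. It was 0.55 for *Dcn*, 0.42 for *Foxc2*, 0.21 for *Lum* and -0.72 for *Clec3b*, which moved the most. The Spearman values over 8 brains were 0.90 for *Slc6a13*, 0.81 for *Slc13a4* and *Foxc1*, 0.62 for *Ptgds*, 0.60 for *Slc22a6* and *Dcn*, 0.67 for *Slc22a8*, 0.48 for *Foxc2*, 0.33 for *Lum* and -0.29 for *Clec3b*.

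Outside the 10, 15878 genes (mean of 1 CPM or more) were ranked by the correlation of their deviations with the mean deviation of the 10. The most alike was *Sntb2*, a syntrophin gene, at 0.97, followed by *A230083G16Rik*, *Spats2l*, *Gja1*, *Slco4c1*, *2700062C07Rik*, *Pmp22*, *Pdhx*, *Tinagl1* and *Sidt2*, which ran down to 0.95. They are the highest of 15878 values over only 8 brains, so correlations this high may come from the ranking alone. *Gja1* encodes connexin 43, *Slco4c1* an organic anion transporter and *Pmp22* a membrane protein of myelin and other cells. Among these 10 most alike genes, *Spats2l* alone was called between the diets, lower in CDD at 27.4 ± 1.04 against 32.3 ± 2.11 CPM (SD, n = 4 each; edgeR's quasi-likelihood test, adjusted p = 0.0212).

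Other genes of the meninges were read from lists for its layers, transcription factors, transporters, proteoglycans and prostaglandin pathway. Their counts are given beside the 8.83% of all genes called and the median of -0.0038. These lists and those of other tissues below were chosen with earlier results of these data known. Called genes were named by p-value or after their values were seen, so their p-values are a description and no independent support. Of 22 other fibroblast markers, 8 fell and 1 rose in CDD, and their median was -0.17. *Pdgfra*, a growth factor receptor that marks fibroblasts, was at 34.5 ± 2.57 CPM in CDD and 42.9 ± 3.28 CPM in ND (SD, n = 4 each) and fell (edgeR's quasi-likelihood test, adjusted p = 0.00690). *Itih5*, a hyaluronan-binding protein gene, and *Col6a1*, a collagen VI chain, fell by 0.41 and 0.43 on the log2 scale (edgeR, adjusted p = 0.00287 and 0.00441), and these 3 calls held in all 8 fits that leave out 1 brain. The riser, *Vim*, is also a gene of neural progenitors, and its call was lost without ND 1, ND 3 or ND 4. The count of 9 called was 3 without ND 1, 3 without ND 3 and 4 without ND 4, where the count over all genes was 688, 471 and 615.

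Among the layers, 2 of 8 pial genes fell and 0 rose (median 0.05), 4 of 10 arachnoid genes fell and 1 rose (median -0.26), and 3 of 8 dural genes tested fell and 0 rose (median -0.33). *Aldh1a2*, whose enzyme makes the retinoic acid of the arachnoid, was at 7.92 ± 0.974 CPM in CDD and 11.2 ± 1.09 CPM in ND (SD, n = 4 each; edgeR, adjusted p = 0.00507). *Ccn3*, a matricellular protein gene on the dural list, was at 3.92 ± 0.952 CPM in CDD and 7.39 ± 1.41 CPM in ND (SD, n = 4 each; edgeR, adjusted p = 0.00454). Both calls, and that of the pial gene *Postn*, were kept in all 8 fits that leave out 1 brain. The arachnoid riser was *Crabp2*, a retinoic acid-binding protein gene, and its call was lost without CDD 1, CDD 2, ND 1, ND 2 or ND 4. Leaving out 1 brain gave 1 to 3 pial calls, with 1 without CDD 1, CDD 3, ND 1, ND 3 or ND 4. It gave 1 to 4 arachnoid calls, with 1 without ND 1 or ND 4, and 1 to 4 dural calls, with 1 without ND 3 or ND 4.

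Of 22 other meningeal and head mesenchyme transcription factors, the relatives of *Foxc1* and *Foxc2* by role, 0 were called by edgeR, DESeq2 or limma-voom and 3 had an unadjusted p under 0.05 (1 was called without CDD 1 or CDD 3). Their median was 0.03, with 12 above 0 and 10 below. The list spans genes of unlike level in ND, such as *Zic1* at 298.7 CPM, *Foxp2* at 108 CPM and *Foxf1* at 0.730 CPM. What share of each came from the meninges was not tested. Of 15 other transporters of the leptomeninges and barriers, 3 fell and 0 rose (median -0.13), and the fallers were *Slc13a3*, *Slc7a14* and *Abcb1a*. The call of *Slc7a14* was lost without ND 1, ND 3 or ND 4, and that of *Abcb1a* held in 1 of the 8 fits that leave out 1 brain, the one without CDD 2. *Slc13a3*, a dicarboxylate transporter of the same family as *Slc13a4*, was at 4.87 ± 0.509 CPM in CDD and 6.97 ± 1.26 CPM in ND (SD, n = 4 each; edgeR, adjusted p = 0.0169), and its call was lost without ND 3, where 0 of the 15 were called (1 without ND 1 or ND 4). Of 7 other small leucine-rich proteoglycans, 1, *Fmod*, fell (log2 fold change -0.53, edgeR, adjusted p = 0.0114; lost without ND 3), with a median of -0.13. Of 13 other prostaglandin enzymes and receptors, 0 were called by edgeR or limma-voom and 1 by DESeq2, and 2 had an unadjusted p under 0.05, with a median of -0.04 (1 was called without CDD 1 or CDD 3).

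**Figure D4:**
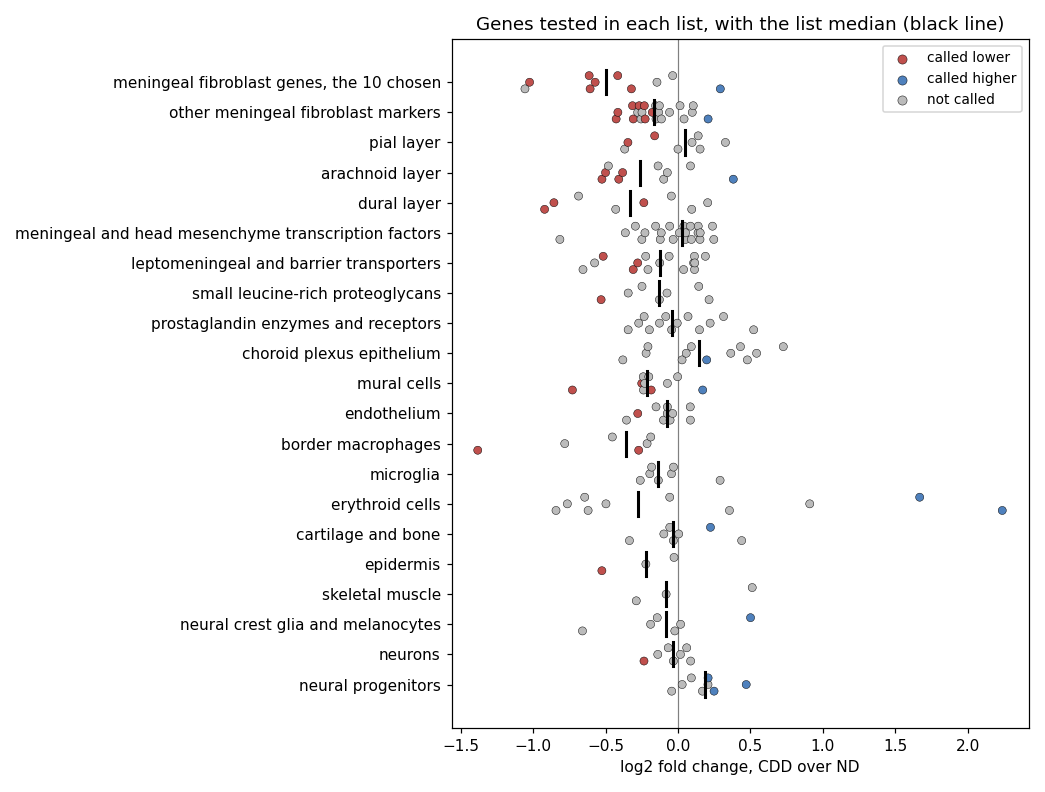
Log2 fold change of CDD over ND (horizontal axis) of each gene tested in the 10 chosen genes and in each other list, called lower (red), called higher (blue) or not called (grey), with the median of the list as a black line. The median of the 10 chosen genes, which were picked with these values known, is -0.49, that of the other fibroblast markers -0.17 and that of the other transcription factors 0.03.

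Marker lists of other tissues that a whole brain can carry were read beside these genes. Of all genes tested, 8.83% were called, with 4.59% lower and 4.24% higher in CDD. In a list of about 10 genes, a single call is near that share. Choroid plexus epithelium, which shares *Ptgds* and several of the transporters, had 0 of 12 genes called lower and 1, *Otx2*, called higher (lost without CDD 1, ND 1, ND 3 or ND 4). Its median log2 fold change was 0.15 with 9 of 12 genes above 0, and 0 to 4 genes were called when 1 brain was left out, with 0 without ND 1, ND 3 or ND 4. In *Clic6* (log2 fold change 0.43, SE 0.13) and *Kcne2* (0.54, SE 0.22), named after their values were seen, every CDD brain was above every ND brain. That held in 7.65% of all genes, and neither gene was called. *Kl*, *Prlr* and *Calml4* lay below 0, at -0.22, -0.38 and -0.21. The summed level of the list, most of which is *Ttr*, was 623.4, 430.5, 380.2 and 280.5 CPM in CDD 1 to CDD 4 and 392.3, 381.5, 416.7 and 408.2 CPM in ND 1 to ND 4. The CDD brains ranged on both sides of the ND brains and ran from CDD 1, the highest, to CDD 4, the lowest, which are also the highest and lowest CDD brains in mean deviation of the 10 genes. *Ttr* itself was at 277.0 ± 120.3 CPM in CDD and 271.5 ± 18.3 CPM in ND (SD, n = 4 each). The part of the choroid plexus in the levels of *Ptgds* and the transporters was not tested.

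Border macrophages, which live in the meninges, had 2 of 6 genes called lower, *Cd163* and *Mrc1*, and a median of -0.36 (*Mrc1* was kept only without CDD 2 or ND 2). *Cd163* was at 0.725, 0.724, 0.651 and 0.603 CPM in CDD 1 to CDD 4 and at 2.05, 0.907, 2.08 and 2.00 CPM in ND 1 to ND 4, and ND 2 was the ND brain nearest to the CDD brains. Its fall was called in all 8 fits that leave out 1 brain (edgeR, adjusted p = 0.00310). The mean deviation of these 6 genes followed that of the 10 with a correlation of 0.87 over the 8 brains, and such correlations were not limited to meningeal lists. They were 0.96 for the transcription factors, 0.90 for the other fibroblast markers, 0.86 for the arachnoid, 0.85 for the dura, 0.84 for the transporters, 0.81 for red cell genes and 0.78 for the 3 epidermal genes. They were 0.68 for neural crest glia and melanocytes, 0.61 for the proteoglycans, 0.42 for the choroid plexus, 0.42 for endothelium, 0.41 for the prostaglandin genes and 0.30 for the pial list. The remaining lists lay between -0.46 for neural progenitors and 0.39 for skeletal muscle. All of these are correlations of list means and were not computed without ND 2. The median correlation of single genes was 0.32 for the transcription factors, 0.71 for the other fibroblast markers and 0.57 for the arachnoid. It was 0.67 for the dura, 0.52 for the transporters, 0.59 for border macrophages, 0.82 for red cell genes and 0.61 for the epidermal genes. Summed levels of the border macrophage markers were 41.9 to 49.2 CPM in CDD and 45.9 to 59.1 CPM in ND.

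Of 10 endothelial genes, 1, *Cldn5*, fell (edgeR, adjusted p = 0.00768), beside the 8.83% of all genes called in either direction. The summed level was 290.3 to 315.1 CPM in CDD and 315.5 to 336.2 CPM in ND. Of 3 epidermal genes tested, 1, *Krt1*, fell (edgeR, adjusted p = 0.00831), and the summed level was 12.1 to 16.3 CPM in CDD and 16.5 to 19.3 CPM in ND. That sum is nearly all *Krt1*, *Krt10* and *Sfn*. The basal layer markers *Krt5*, *Krt14*, *Krt15* and *Trp63* had means of 0.0951 to 0.252 CPM and were too low to be tested. Mural cells had 3 of 10 genes lower and 1 higher (median -0.22; 1 to 5 called when 1 brain was left out, the fewest without ND 3 or ND 4), and microglia had 0 of 7 called by edgeR, DESeq2 or limma-voom, with 1 at an unadjusted p under 0.05 (median -0.14). Cartilage and bone had 1 of 7 higher, *Col2a1*, which was kept only without CDD 3 or ND 2. Skeletal muscle had 0 of 3 called by edgeR, DESeq2 or limma-voom and 0 at an unadjusted p under 0.05. Neural crest glia and melanocytes had 1 of 6 higher, *Dct*, lost without CDD 1, ND 1, ND 3 or ND 4. Red cell genes summed to 764.2 to 1426 CPM in CDD and 826.9 to 2995 CPM in ND, lowest among the ND brains in ND 2, with 2 of 10, the embryonic globins *Hbb-y* and *Hba-x*, higher (*Hba-x* was lost without ND 1 or ND 4). Of the cells of the brain itself, neurons had 1 of 7 genes lower, *Snap25*, lost without ND 1, ND 3 or ND 4, and neural progenitors had 3 of 8 higher, with a summed level of 1633 to 1791 CPM in CDD and 1482 to 1563 CPM in ND. The sums of endothelium, epidermis and neural progenitors did not overlap between the diets, by a margin of only 315.1 against 315.5 CPM for endothelium. No gene of any list was at 0 in all brains. What part these tissues had in the levels of the 10 genes was not tested.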

How the data were processed

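RNA of 8 whole brains was analysed, 4 per diet, grouped by the diet in the labels. The counts were deposited raw for each gene and brain. HISAT2 2.0.5, featureCounts 1.5.0-p3 and DESeq2 1.20.0 stand in the submitters' processing notes, and the genome build is not given in the sources used here. The deposited normalized signal is the count over a size factor per library, and the deposited FPKM is that signal per gene length. Columns of the authors' own comparison (fold changes and p-values) and subsets of the table were not used.

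Genes were filtered (filterByExpr), scaled by TMM and tested with the robust quasi-likelihood test of edgeR 4.0.16, two-sided, with diet as the single term and Benjamini-Hochberg adjustment (threshold 0.05). SEs follow from the F statistic. Deviations used log2 CPM with a prior count of 2. R 4.3.3, DESeq2 1.42.0, limma 3.58.1, Python 3.11.15 and matplotlib 3.10.9 were also used. The fit was tested on simulated data. p-values measure the spread between these brains, which may share dams. The 10 genes and all lists were chosen with earlier results of these data known. Other genes named were at most 3 called per list by p-value, its most abundant gene, the 10 most alike in deviations, and single risers or fallers named after their values were seen. Lists overlap in *Vim*, *Bgn* and *Ogn*. The alternatives left out each brain or changed the tool, scaling, filter, threshold or unit.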

Additional observations from a re-analysis of the deposited data

Results flagged for a closer look

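In 22 groups of 4 brains, the 10 genes and their summed level in each diet, the brain at an end of the range was set against the others. In 2 of them it stood far enough from its nearest neighbour to be picked out, where chance gives about 1.1. *Slc6a13* in ND 2 was at 4.13 on the log2 CPM scale (17.4 CPM), with 0.909 of the range of the ND brains between it and the next brain. *Lum* in ND 4 was at 3.04 on the log2 CPM scale (8.15 CPM), with 0.833 of the range below the next brain.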

How the results depend on the processing

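Calls among the 10 genes changed when single brains were left out, and so did the count over all genes. When each brain was left out in turn, 3 to 7 genes were called lower and 0 to 1 higher, the fewest lower (3: *Slc22a8*, *Slc6a13* and *Clec3b*) without ND 1, ND 3 or ND 4, and 471 to 2495 genes were called in all. At an adjusted p under 0.01, 3 of the 10 were lower, 0 higher and 477 genes called in all. *Lum* lost its call with limma-voom and upper-quartile scaling, which left 0 higher. The replicate numbers shared by the diets did not pair the brains (correlations of deviations 0.10, -0.13, 0.12 and 0.23), and with a replicate block 6 of the 10 were lower and 0 higher, with 1812 genes called in all. The median of the 10 was -0.49 and became -0.32 on the log2(FPKM + 1) scale, which shrinks low genes, and limma then called 3 of the 10 lower and 0 higher, without *Slc22a6*, *Slc13a4*, *Foxc2* and *Lum*. *Clec3b* was at -0.55 on that scale. *Foxc1* ran from -0.10 to 0.0094 when each brain was left out. In the other scalings and tools run with all 8 brains (RLE, upper-quartile, DESeq2, limma-voom), all 10 genes kept their sign. Depth limits *Clec3b* most, with 20 to 62 counts per brain.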
